A study of Mus musculus with 1536 samples.

Results

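The peptide hormone receptor genes Oxtr, Rxfp1, Pth2r, Calcr, Gipr, Glp1r, Lepr, Insr and Prlr were examined in single serotonin neurons of the mouse raphe. They were taken from a list of 9 receptors for circulating or locally released peptide hormones, and all 9 are among the 53263 gene symbols of the expression table. The cells came from Sert-Cre;Ai14 mice on the C57BL/6J background, 40 to 45 days old. In these mice Cre under the control of serotonin transporter sequences permanently switches on a red fluorescent reporter, tdTomato. Cells that once used the transporter gene are therefore labelled too. Single tdTomato-positive cells were sorted into plates and made into Smart-seq2 libraries, a full-length method without molecular identifiers. There were 2 dissections. One held the principal dorsal raphe (pDR, 480 labelled cells, of which 290 on 5 plates are in the table). The other held the whole dorsal raphe and, by the methods of the study, the median raphe (DR_MR, 1056 labelled cells, 709 on 11 plates). Neither group was treated, and both carried the same alleles. The study used several brains per dissection and mice of both sexes. The labels name no animals, so each dissection counted as 1 sample, no p-value was computed, and the spread is given over plates. Plates of 1 dissection may share animals, and all intervals below cover counting error only.

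Oxtr encodes the receptor for oxytocin, a hypothalamic peptide released both into the blood and within the brain, and couples mainly to Gq proteins. Rxfp1 encodes the relaxin receptor. Pth2r, Calcr, Gipr and Glp1r are class B G protein-coupled receptors that raise cyclic AMP, for the peptide TIP39, for calcitonin, for gastric inhibitory polypeptide and for glucagon-like peptide 1. Lepr and Prlr are cytokine receptors that signal through the kinase Jak2 for leptin and prolactin, and Insr is the insulin receptor, a receptor tyrosine kinase. Serotonin neurons of the raphe project widely and are known to be reached by hormonal signals of feeding, stress and reproduction.

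All 999 cells had at least 1 read of Tph2, the enzyme of serotonin synthesis in the brain, and at least 1760 detected genes. The depth was 96834 to 2780443 reads on genes per cell, with a median of 755926 in pDR and 869546 in DR_MR. The summed level of 5 serotonin neuron markers (Tph2, Fev, Slc6a4, Slc18a2, Ddc) had a median of 18734 reads scaled to a common total (CPM, the unit of the deposited values) in pDR and 20307 in DR_MR. One DR_MR cell stood apart with a sum of 41.4 CPM, against 730 in the next lowest cell, and it held reads of 0 of the 9 receptors. Marker sums of astrocytes, microglia, endothelial, mural, choroid plexus and ependymal cells and of other neurons had a median of 0 in both dissections. Oligodendrocyte markers had a median sum of 25.1 CPM in pDR and 24.1 in DR_MR, and reached 77436 in 1 cell.

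By the share of cells with at least 1 read the receptors ran from nearly every cell to none. Insr was the most widespread, with a read in 854 of 999 cells (85.5%, exact 95% interval 83.1 to 87.6). Prlr followed in 538 cells (53.9%, 50.7 to 57.0) and Oxtr in 452 cells (45.2%, 42.1 to 48.4). Calcr was found in 315 cells (31.5%, 28.7 to 34.5), Rxfp1 in 247 (24.7%, 22.1 to 27.5) and Pth2r in 223 (22.3%, 19.8 to 25.0). Gipr had reads in 97 cells (9.71%, 7.94 to 11.7), and 52.2 CPM was its level in the highest cell. Lepr was read in 16 cells (1.60%, 0.918 to 2.59). Glp1r had a read in 0 of 999 cells, which allows a share of up to 0.30%. With the 9 cells under 250000 reads left out and the other 990 thinned to that number, the shares of the 3 widest were 78.0% for Insr, 49.7% for Prlr and 42.4% for Oxtr, so the order was the same at equal depth.

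The share and the level ranked the receptors differently. Per kilobase of annotated exon, the mean level over all cells was highest for Calcr, at 15.0 CPM per kb (1.01 to 28.5 over the 16 plates), above Oxtr in 12 of 16 plates. Oxtr had 3.93 CPM per kb (1.47 to 12.6) and Pth2r 3.56 (0.286 to 5.37), and these neighbours did not differ beyond their spread, since Oxtr was the higher in 8 of 16 plates. Insr had 1.29 CPM per kb and Prlr 1.17, with Insr the higher in 11 of 16 plates. Rxfp1 had 0.914 CPM per kb, below Prlr in 9 of 16 plates, so the plate values of these 3 overlapped as well. Gipr, at 0.255, and Lepr, at 0.0115 CPM per kb, were lowest among those detected.

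Calcr thus had high levels in the 31.5% of cells that held it. Its positive cells had a median of 154 CPM, with quartiles at 56.7 and 285 CPM, and 206 cells held at least 100 CPM. Insr was wider and lower, with a median of 16.9 CPM over its many positive cells and only 5 cells at 100 CPM or more. The 100 cells with the highest value held 31.9% of the summed CPM of Insr, 49.8% of Prlr, 59.1% of Oxtr, 63.3% of Calcr, 76.4% of Pth2r and 82.4% of Rxfp1.

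Most cells carried reads of several receptors. A cell held reads of 2.74 receptors on average (median 3), and 605 cells (60.6%, 57.5 to 63.6) held 3 or more of the 9. There were 14 cells with none, 98 with 1, 282 with 2, 388 with 3, 177 with 4, 32 with 5 and 8 with 6. Thinning to 250000 reads lowered the share with 3 or more to 51.2%. In pDR the share was 55.2% (49.2 to 61.0) and in DR_MR 62.8% (59.1 to 66.3), and the plate means ran from 1.79 to 2.98 receptors per cell in pDR and from 2.54 to 2.92 in DR_MR, so the dissections overlapped.

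**Figure D1:**
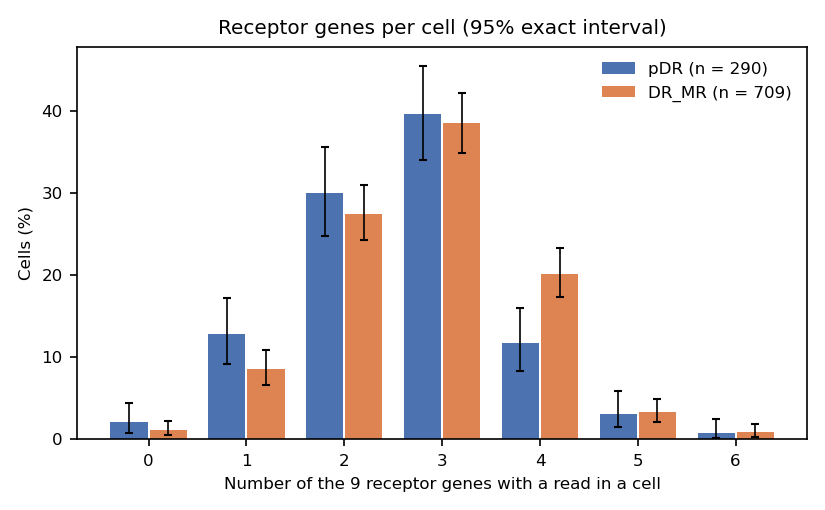
Share of cells (%) by the number of the 9 receptor genes with at least 1 read in the cell, for pDR (290 cells) and DR_MR (709 cells), with exact 95% intervals as error bars. Cells with 3 receptors are the commonest class in both dissections, and over all cells 388 of 999 hold 3.

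Of the possible combinations 90 were seen, 25 of them in a single cell. The most frequent was Oxtr with Insr and Prlr, in 83 cells on 15 plates. Oxtr with Insr alone was found in 72 cells and Oxtr with Rxfp1 and Insr in 68, of which 62 were DR_MR cells. Calcr with Insr and Prlr made up 65 cells, 41 of them from pDR. Pth2r with Insr and Prlr made up 55 cells, 52 of them from DR_MR. A receptor other than Insr was read in 932 cells (93.3%), and a class B receptor in 510.

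Oxtr, Rxfp1 and Pth2r were higher in DR_MR than in pDR, and Calcr tended the other way. The question of this comparison was how receptor levels differ between the principal dorsal raphe and a dissection that reaches further. A receptor was counted as past the fold where the log2 ratio of mean CPM + 1 was at least 1 in size, and 3 of the 9 were past it upwards and 0 downwards, against 0.901% and 1.54% of the 25522 genes with reads in at least 3 cells. Of these genes 12688 had a mean under 1 CPM, where the added 1 CPM makes the fold hard to reach. That lowers these shares and the like shares of genes given below, so they are a description and no test of the receptors.

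The mean Oxtr level in the 5 pDR plates was 8.37, 7.93, 9.82, 7.05 and 10.2 CPM. In the 11 DR_MR plates it ran from 10.8 to 60.5 CPM with a median of 17.0, and all 11 lay above all 5 pDR plates. Over cells the mean was 8.58 CPM in pDR and 22.99 in DR_MR, a log2 ratio of 1.32. Rxfp1 had plate means of 0.941, 1.85, 2.43, 0 and 0.939 CPM in pDR and of 5.93 to 28.0 in DR_MR (median 10.4). Again no plate overlapped, and the means over cells of 1.34 and 12.4 CPM gave a log2 ratio of 2.52. Pth2r had plate means of 2.13, 7.77, 2.38, 0.739 and 2.24 CPM in pDR and of 7.79 to 13.9 in DR_MR (median 11.9). The highest pDR plate and the lowest DR_MR plate thus all but touched, and the means over cells were 3.70 and 11.4 CPM, a log2 ratio of 1.41. Of the 9 receptors 3 had every DR_MR plate above every pDR plate and 0 had every one below, against 2.54% and 2.43% of all genes tested.

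Calcr was read in 52.1% of pDR cells (46.2 to 57.9) and 23.1% of DR_MR cells (20.1 to 26.4). Its plate means were 112, 84.8, 58.9, 96.9 and 82.2 CPM in pDR and 3.96 to 109 in DR_MR (median 35.6). Of the DR_MR plates 8 of 11 lay below every pDR plate. Plate SER52, at 109 CPM, lay above 4 of the 5. The means of 90.4 and 45.8 CPM gave a log2 ratio of -0.96, just short of the fold. It was -1.22 without plate SER52, and it also passed the fold, more narrowly, without SER13, SER25, SER50, SER60 or SER63.

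The other receptors differed by less than the fold between dissections. Insr had 16.4 CPM in pDR and 18.3 in DR_MR, Prlr 15.8 and 18.9, and Gipr 1.11 and 0.80, with plates that overlapped for each. Lepr was read in 11 pDR cells, 8 of them on plate SER13, and in 5 DR_MR cells, with 1 to 17 reads in a cell. Immediate-early genes moved with the same comparison, with a median summed level of 55.9 CPM in pDR and 167 in DR_MR over 6 genes (Fos, Fosb, Junb, Egr1, Arc, Npas4), and their part in the result was not tested.

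**Figure D2:**
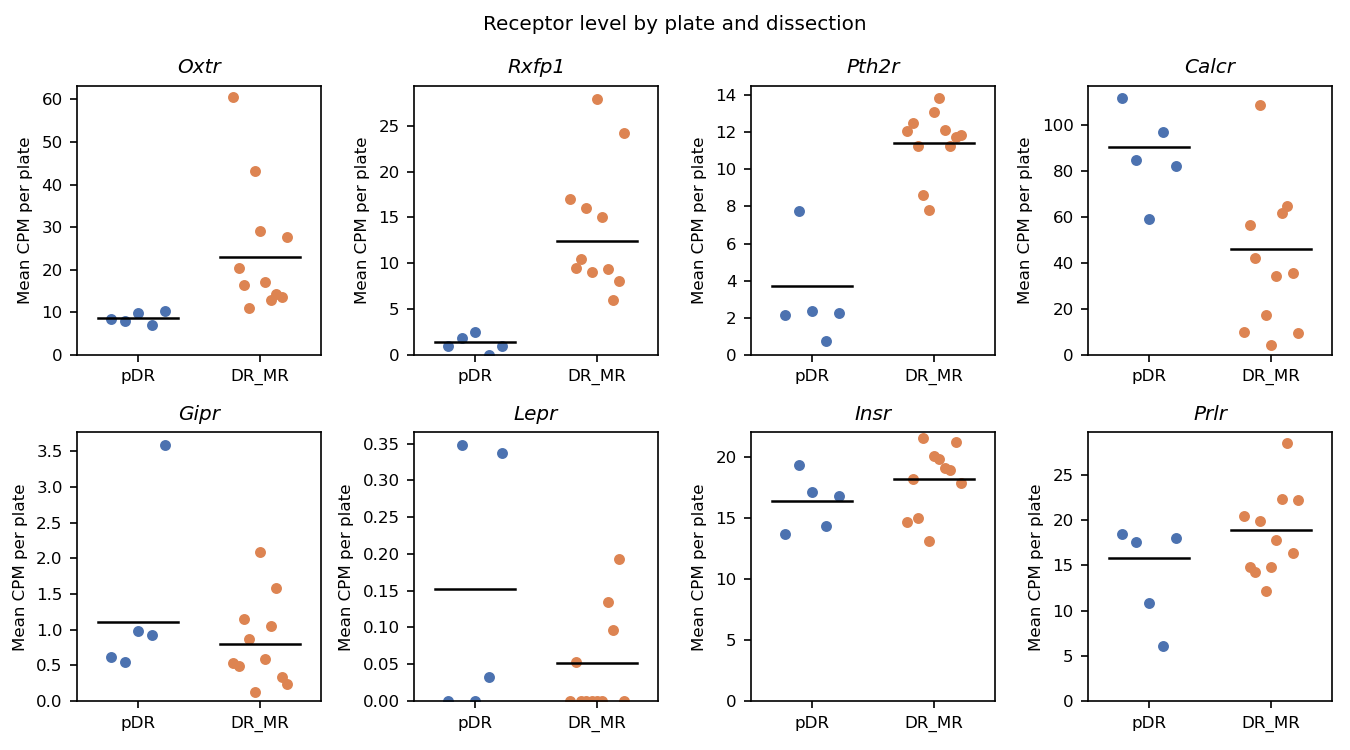
Mean CPM of each receptor in each plate (points) of pDR (5 plates) and DR_MR (11 plates), with the mean over the cells of each dissection as a line and each vertical axis linear from 0. For Oxtr, Rxfp1 and Pth2r all DR_MR points lie above all pDR points, while for Calcr 8 of 11 lie below. Glp1r, at 0 in every cell, is left out.

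Cells with reads of the transcription factor genes Zeb2 or Irx2 were common in DR_MR and rare in pDR. A read of Zeb2 was present in 147 DR_MR cells (20.7%) and a read of Irx2 in 154 (21.7%), with 5 cells holding both. In each pDR plate at most 8.24% of cells had a read of either. When the 413 DR_MR and 277 pDR cells with neither were compared, the mean Oxtr level was 12.7 against 8.46 CPM, a log2 ratio of 0.53, and Rxfp1 was at 3.44 against 1.25 CPM (0.98). For Oxtr 10 of 11 DR_MR plates lay above every pDR plate. For Rxfp1 5 of 11 did, and its DR_MR plate means ran from 0.356 to 26.0 CPM. Pth2r still differed by more than the fold, at 8.26 against 2.69 CPM (1.33), with 10 of 11 DR_MR plates above every pDR plate. It was the only one of the 9 past the fold in these cells, and 0 were past it downwards, where 0.541% and 1.28% of 25520 genes were. The share of cells with Rxfp1 was 11.9% (8.91 to 15.4) and 11.6% (8.04 to 15.9), and that with Oxtr 50.4% (45.4 to 55.3) and 34.7% (29.1 to 40.6).

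The share of Zeb2 cells also varied between plates of DR_MR. In plates SER48, SER55, SER56 and SER67 it was 23.3 to 57.9% of cells, and in the other 7 plates 10.0 to 16.2%. Mean Oxtr was 27.7 to 60.5 CPM in those 4 plates and 10.8 to 20.4 in the other 7. Calcr was 3.96 to 17.4 CPM in the 4 and 34.3 to 109 in the 7. Pth2r ranged from 7.79 to 13.1 CPM and from 8.65 to 13.9, and Rxfp1 from 8.99 to 28.0 and from 5.93 to 16.1, so for both the 2 ranges overlapped.

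The sets of cells described next are defined only by reads of marker genes, which the study picked on these same cells, and a set is not a cell type. Each contrast sets positive against other cells of 1 dissection, and Zeb2 and Irx2 sets are given in DR_MR alone. Median depth lay between 751914 and 974685 reads in the positive cells of these sets and between 722068 and 910859 in the cells they were set against.

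The Zeb2-positive cells were high in Oxtr, Gipr and Rxfp1 and low in Pth2r and Prlr. In number, 3 of the 9 receptors were past the fold upwards and 2 downwards, against 1.65% and 2.9% of genes. Oxtr had a mean of 72.4 CPM in the 147 Zeb2-positive cells and 10.1 in the other 562, a log2 ratio of 2.73, and it was higher in 11 of 11 plates. Pth2r was nearly missing, with 0.369 against 14.3 CPM (log2 ratio -3.49) and a lower mean in 11 of 11 plates. Prlr was also lower in every plate, at 5.91 against 22.2 CPM (-1.75). Gipr was at 2.65 against 0.315 CPM (1.47), higher in 11 of 11 plates, and Rxfp1 at 24.8 against 9.15 (1.35), higher in 8 of 11. Markers of microglia, which also use Zeb2, had a mean summed level of 1.39 CPM in the Zeb2-positive and 0.378 in the other DR_MR cells, with 4 of 5 genes read in each and C1qa at 0 in the positive cells. Their part in the result was not tested.

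Within the Zeb2 cells, Oxtr and Calcr were read mostly in different subsets. Of the 106 cells with reads of Zeb2 and of Piezo2, a mechanosensitive ion channel gene, all 106 had Oxtr (96.6 to 100%), with a mean of 94.4 CPM and plate means of 40.4 to 117. Calcr was read in 1 of the 106, with fewer than 5 reads, and Pth2r in 0 of 106, which allows a share of up to 2.83%. Rxfp1 was read in 95 of them (89.6%). Gipr was read in 9 (8.49%), at 0.843 CPM against 0.793 in the other DR_MR cells, higher in 5 of 11 plates, so its higher mean in Zeb2 cells did not hold here. Of the 106 cells, 52 (49.1%) had exactly Oxtr, Rxfp1 and Insr, and 19 more had Prlr in addition.

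The 30 cells with reads of Zeb2, of the hepatocyte growth factor receptor gene Met and of the neurokinin receptor gene Tacr3 were high in Calcr and Gipr. Past the fold were 3 of 9 receptors upwards and 2 downwards, against 1.66% and 3.61% of genes. The 3 upwards were Calcr, Gipr and Rxfp1. The study had already reported them, on these same cells, as preferentially expressed in the caudal dorsal raphe. It took Met and Tacr3 as markers there, so this count is not independent of that report. Calcr was at 238 CPM against 37.3 in the other DR_MR cells (log2 ratio 2.64) and Gipr at 8.93 against 0.441 (2.78), each higher in 5 of the 5 plates with at least 3 such cells. Rxfp1 was read in 28 of the 30 and Pth2r in 0. Reads of Piezo2 were present in 7 of these 30 cells. Those 7 all had Oxtr, and 0 of them had Calcr or Gipr. Of the 23 without Piezo2, 21 had Calcr (91.3%, 72.0 to 98.9) at a mean of 311 CPM, 15 had Gipr (65.2%, 42.7 to 83.6) and 2 had Oxtr (8.70%, 1.07 to 28.0). Thus 10 of the 23 had exactly Rxfp1, Calcr, Gipr and Insr. This split by Piezo2 was made after the values were seen. A further 18 Zeb2 cells of DR_MR had no Piezo2 and not both Met and Tacr3. Of these 11 had Oxtr and 2 had Calcr.

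**Figure D3:**
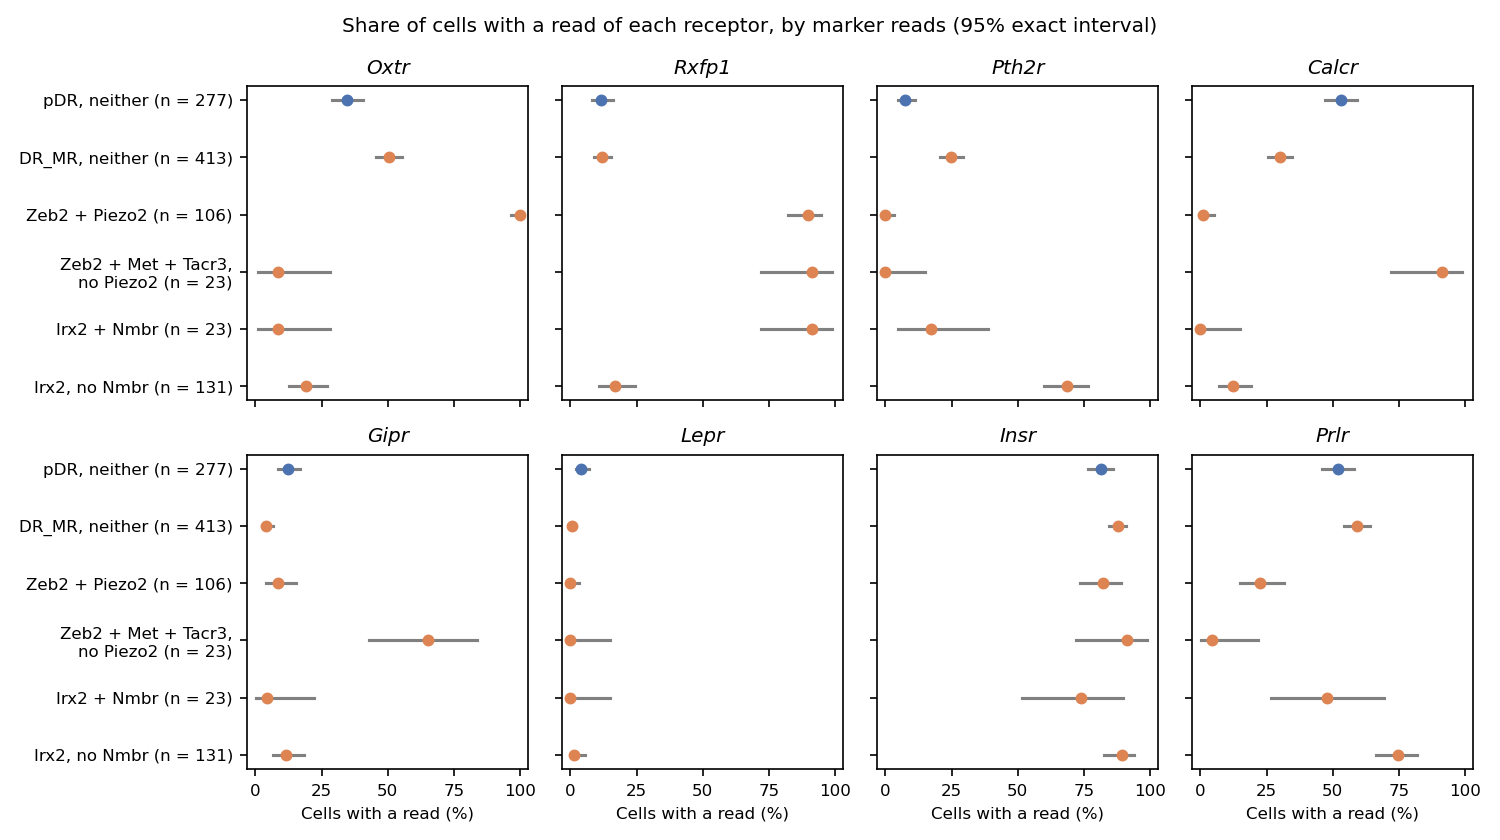
Share of cells (%) with at least 1 read of each receptor in 6 groups of cells defined by marker reads, with exact 95% intervals as grey bars and n the number of cells. Blue is pDR and orange DR_MR, and neither means no read of Zeb2 or Irx2. Oxtr is at 100% in cells with Zeb2 and Piezo2 where Calcr is at 0.943%, and Rxfp1 is between 89.6 and 91.3% in 3 of the groups.

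Irx2-positive cells were high in Pth2r and Rxfp1 and low in Oxtr and Calcr, with 2 of 9 receptors past the fold in each direction against 0.56% and 0.976% of genes. Pth2r was at 30.4 CPM in the 154 positive cells and 6.20 in the other 555 (log2 ratio 2.12), higher in 11 of 11 plates. Oxtr was at 3.08 against 28.5 CPM (-2.86) and Calcr at 8.86 against 56.1 (-2.53), both lower in 11 of 11 plates. Rxfp1 was at 24.7 against 8.99 CPM (1.36), higher in 9 of 11.

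The higher Rxfp1 level of Irx2 cells lay in those with reads of Nmbr, the neuromedin B receptor gene. In the 23 cells with both, Rxfp1 was read in 21 (91.3%, 72.0 to 98.9) at a mean of 142 CPM, the highest among the sets given here. In the 131 Irx2 cells without Nmbr it was read in 22 (16.8%, 10.8 to 24.3) at 4.01 CPM. Pth2r showed the opposite, with 90 of the 131 (68.7%, 60.0 to 76.5) at 34.7 CPM and 4 of the 23 (17.4%, 4.95 to 38.8) at 5.36. Calcr was read in 0 of the 23, which allows up to 13.0%. Prlr was common in the 131, with 98 cells (74.8%, 66.5 to 82.0).

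The Oxtr, Pth2r and Calcr genes are shown with their start regions because Oxtr and Pth2r had the widest ratios in the Zeb2 contrast, and Calcr, at 0.00785 against 53.9 CPM, in the contrast of cells with both Zeb2 and Piezo2. On the GRCm38 build, GENCODE M21 places Oxtr at chr6:112473683-112489943 on the minus strand, Pth2r at chr1:65282056-65389244 on the plus strand and Calcr at chr6:3685680-3764714 on the minus strand. The other genes lie at chr3:79641611-79737880 (Rxfp1, minus strand), chr7:19156061-19166127 (Gipr, minus), chr17:30901817-30940791 (Glp1r, plus), chr4:101717404-101815352 (Lepr, plus), chr8:3122061-3279617 (Insr, minus) and chr15:10177238-10349180 (Prlr, plus). Among the 9, only Prlr shares exon bases with another annotated gene (203 bases with Gm21973, which has a read in no cell). The RefSeq windows, 250 bases before to 50 after an annotated start, are written 5′ to 3′ on the gene's strand, and capitals mark CACCTG or CAGGTG, the E-box letters that Zeb2 protein is known to bind, searched on both strands. Calcr has 2 annotated starts here.
Oxtr, chr6:112489776-112490075, minus strand: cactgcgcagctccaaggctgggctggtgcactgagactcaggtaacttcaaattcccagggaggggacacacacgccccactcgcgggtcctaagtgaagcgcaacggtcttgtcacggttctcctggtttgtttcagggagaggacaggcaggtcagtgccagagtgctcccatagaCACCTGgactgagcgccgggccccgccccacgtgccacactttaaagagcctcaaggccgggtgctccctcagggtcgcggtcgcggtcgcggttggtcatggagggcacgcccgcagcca
Pth2r, chr1:65311007-65311306, plus strand: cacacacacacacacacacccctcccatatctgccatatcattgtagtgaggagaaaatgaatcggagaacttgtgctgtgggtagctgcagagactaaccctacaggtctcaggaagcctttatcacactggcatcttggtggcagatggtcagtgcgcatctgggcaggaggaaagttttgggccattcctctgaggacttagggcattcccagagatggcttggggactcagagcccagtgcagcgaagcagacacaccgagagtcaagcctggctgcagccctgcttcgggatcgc
Calcr, first window, chr6:3763574-3763873, minus strand: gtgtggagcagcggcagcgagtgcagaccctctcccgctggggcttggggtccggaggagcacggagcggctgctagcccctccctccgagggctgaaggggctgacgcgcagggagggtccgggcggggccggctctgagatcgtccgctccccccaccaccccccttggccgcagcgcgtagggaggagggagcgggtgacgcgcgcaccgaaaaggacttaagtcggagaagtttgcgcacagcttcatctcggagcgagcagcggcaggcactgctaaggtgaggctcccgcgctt
Calcr, second window, chr6:3764664-3764963, minus strand: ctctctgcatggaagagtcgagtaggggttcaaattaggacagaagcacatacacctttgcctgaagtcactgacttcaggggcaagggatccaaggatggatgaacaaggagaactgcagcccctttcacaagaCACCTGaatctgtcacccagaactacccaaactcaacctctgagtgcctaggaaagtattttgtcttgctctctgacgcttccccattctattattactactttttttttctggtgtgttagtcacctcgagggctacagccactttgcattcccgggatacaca
The letters were present once in the Oxtr window and once in the second Calcr window, and 0 times in the other 2. Of the windows not printed, the letters were found in 1 of Glp1r, 1 of 2 of Lepr and 1 of 3 of Prlr. They are present in 20.2% of all 32851 RefSeq windows of this length, so a match is a description of the letters and not of a site. The Pth2r window and the first Calcr window lie inside their GENCODE genes and not at the outer end. Windows of Rxfp1, Gipr and Insr were not analysed here.

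Oxtr tracked the vesicular glutamate transporter gene Slc17a8 (Vglut3) and ran against the GABA-synthesis genes Gad1 and Gad2 in pDR. In the 131 Slc17a8-positive pDR cells Oxtr was at 15.0 CPM against 3.28 in the other 159 (log2 ratio 1.91), higher in 5 of 5 plates. Pth2r was lower there, at 1.88 against 5.20 CPM (-1.11), in 5 of 5 plates. These were the 1 receptor past the fold upwards and the 1 downwards, against 0.764% and 0.721% of genes. Prlr, just short of the fold at 10.1 against 20.6 CPM (-0.96), was lower in 5 of 5 plates. Both lay close to the fold, and without plate SER25 or SER40 Pth2r was at -0.96, while Prlr was at -1.12 without SER13 and passed the fold narrowly without SER39.

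In DR_MR, where 518 of 709 cells were Slc17a8-positive, Oxtr was at 24.0 against 20.4 CPM (0.22) with 8 of 11 plates higher. Pth2r, at 8.49 against 19.5 CPM (-1.11), was the 1 receptor past the fold downwards, with 0 upwards, against 0.65% and 0.27% of genes, and without plate SER60 it was at -0.98. With cells that had a read of Zeb2 or Irx2 left out, Oxtr was at 15.9 CPM in 305 positive and 3.57 in 108 other cells (1.89), higher in 10 of 10 plates, and Pth2r at 4.87 against 17.9 (-1.68), lower in 10 of 10. Rxfp1 was then at 4.15 against 1.42 CPM (1.09), higher in 9 of 10 plates, so in this narrower set 2 of 9 receptors were past the fold upwards and 1 downwards, against 0.709% and 1.2% of genes.

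Gad-positive cells, with a read of Gad1 or Gad2, numbered 183 of 290 in pDR and 164 of 709 in DR_MR. In pDR, 0 of 9 receptors were past the fold upwards and 2 downwards, against 1.21% and 0.776% of genes. Those 2 were Oxtr, at 4.78 against 15.1 CPM (-1.48) with 5 of 5 plates lower, and Pth2r, at 2.07 against 6.49 CPM (-1.29) with 4 of 5 lower and a log2 ratio of -0.76 without plate SER13. In DR_MR 0 of 9 receptors were past the fold in either direction, against 0.721% and 0.161% of genes. Pth2r was at 6.22 against 13.0 CPM (-0.96), and between -1.18 and -1.06 without SER52, SER55 or SER56. Oxtr there was at 24.3 against 22.6 CPM (0.10), with 5 of 11 plates higher. Without cells that had Zeb2 or Irx2 it was at 6.20 against 14.6 CPM (-1.11), lower in 9 of 10 plates. Rxfp1 was then at 6.93 against 2.41 CPM (1.22) but higher in only 3 of 10 plates, which made 1 of 9 receptors past the fold in each direction, against 1.4% upwards and 0.38% downwards of genes.

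**Figure D4:**
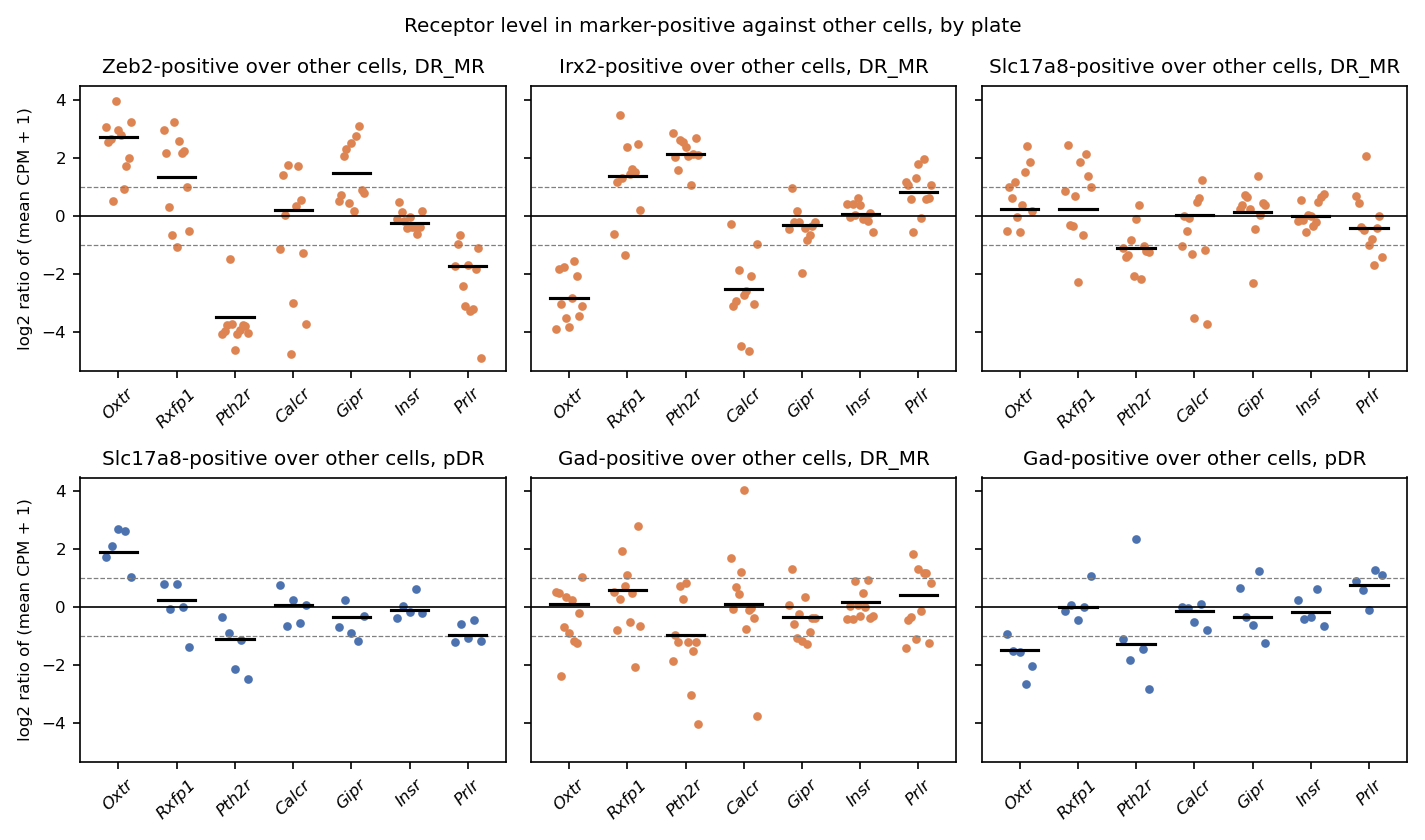
The log2 ratio of mean CPM + 1 in marker-positive over other cells, for 7 receptors, in each plate with at least 3 cells of either kind (points) and over all cells of the dissection (lines). Dashed lines mark a ratio of 1 and -1. Oxtr lies above 0 in all 11 plates for Zeb2 and below 0 in all 11 for Irx2, and Pth2r does the reverse. The lines of Insr lie between -0.25 and 0.18, and its points run from -0.64 to 0.93.

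Insr, read in most cells, was past the fold in none of the contrasts between marker-positive and other cells. Its log2 ratio lay between -0.25 (Zeb2) and 0.18 (Gad, DR_MR) in the contrasts for Zeb2, Irx2, Slc17a8 and Gad. It was -0.36 in the 30 cells with Zeb2, Met and Tacr3, lower in 5 of 5 plates. The widest was 0.54, for Npas3 in pDR (19.8 against 13.3 CPM), higher in 4 of 5 plates. Its mean was 16.2 CPM in the cells with Zeb2 and Piezo2, 20.4 in those with Irx2 and Nmbr and 18.9 in DR_MR cells with neither Zeb2 nor Irx2.

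The corticotropin-releasing hormone receptor gene Crhr2, the neuropeptide gene Trh and the transcription factor gene Npas3 also parted the cells by their receptors, in contrasts that in DR_MR take in the Zeb2 and Irx2 cells unless said. In pDR, Oxtr was at 16.5 CPM in the 117 Crhr2-positive and 3.22 in the other 173 cells (log2 ratio 2.05), higher in 5 of 5 plates. In DR_MR it ran the other way, at 16.0 against 27.8 CPM (-0.76), lower in 7 of 11 plates. With Zeb2 and Irx2 cells left out, a choice made after the values were seen, Oxtr in DR_MR was at 19.7 CPM in 218 Crhr2-positive and 4.82 in 195 other cells (1.83), higher in 11 of 11 plates. Calcr was lower in the Crhr2-positive cells of both dissections, at 35.5 against 128 CPM in pDR (-1.82, 5 of 5 plates) and 26.0 against 59.5 in DR_MR (-1.17, 11 of 11 plates). In Trh-positive cells of pDR, Prlr was at 27.5 against 9.88 CPM (1.39), higher in 5 of 5 plates, while Pth2r was at 0.393 against 5.39 (-2.20), lower in 5 of 5. The 40 Trh-positive cells of DR_MR had Prlr at 13.7 against 19.2 CPM (-0.46), lower in 6 of 8 plates, a difference between dissections that was not tested, and Pth2r at 0.0480 against 12.1 (-3.65), lower in 8 of 8. Npas3-positive cells had more Pth2r in both dissections, with 6.97 against 0.689 CPM in pDR (2.24, 5 of 5 plates) and 21.4 against 5.63 in DR_MR (1.75, 10 of 11 plates). Rxfp1 was lower in the Npas3-positive cells of DR_MR, at 2.38 against 18.3 CPM (-2.51), in 11 of 11 plates. In pDR it was at 1.27 against 1.40 CPM (-0.08). In DR_MR cells without Zeb2 or Irx2 it was at 0.971 against 5.58 CPM (-1.74) but lower in only 5 of 9 plates.

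Pairs of receptors were compared within plates, so that differences between plates do not enter. Of the 36 pairs 28 have a value, and 0 had a correlation of ln(CPM + 1), centred on plate means over the 999 cells, of at least 0.3 in either direction. The lowest was Oxtr with Pth2r (r = -0.27), negative in 13 of 13 plates with at least 3 positive cells of each. Next came Oxtr with Calcr (r = -0.25), negative in 14 of 14, and Oxtr with Prlr (r = -0.19), negative in 16 of 16. The highest was Pth2r with Prlr (r = 0.21), positive in 13 of 13 plates, ahead of Oxtr with Rxfp1 (r = 0.16), positive in 9 of 15. The cells of a plate share their processing and the reads are sparse, so these values are given as a description.

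Counting cells with reads of both genes gave the pairs just named the same directions, but ordered the pairs differently. Oxtr and Prlr were together in 221 cells against 242. Oxtr and Pth2r were read together in 57 cells, against 104 from the product of their shares in each plate. For Oxtr and Calcr the numbers were 78 and 131, and for Rxfp1 and Pth2r 29 and 58.9. Pth2r and Prlr were together in 173 cells against 124, which is 77.6% of the Pth2r cells and 32.2% of the Prlr cells. Rxfp1 and Gipr were together in 39 cells against 21.9, the widest excess. Insr was found with each of the others at close to the product of the shares, for instance in 390 cells with Oxtr against 388.

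**Figure D5:**
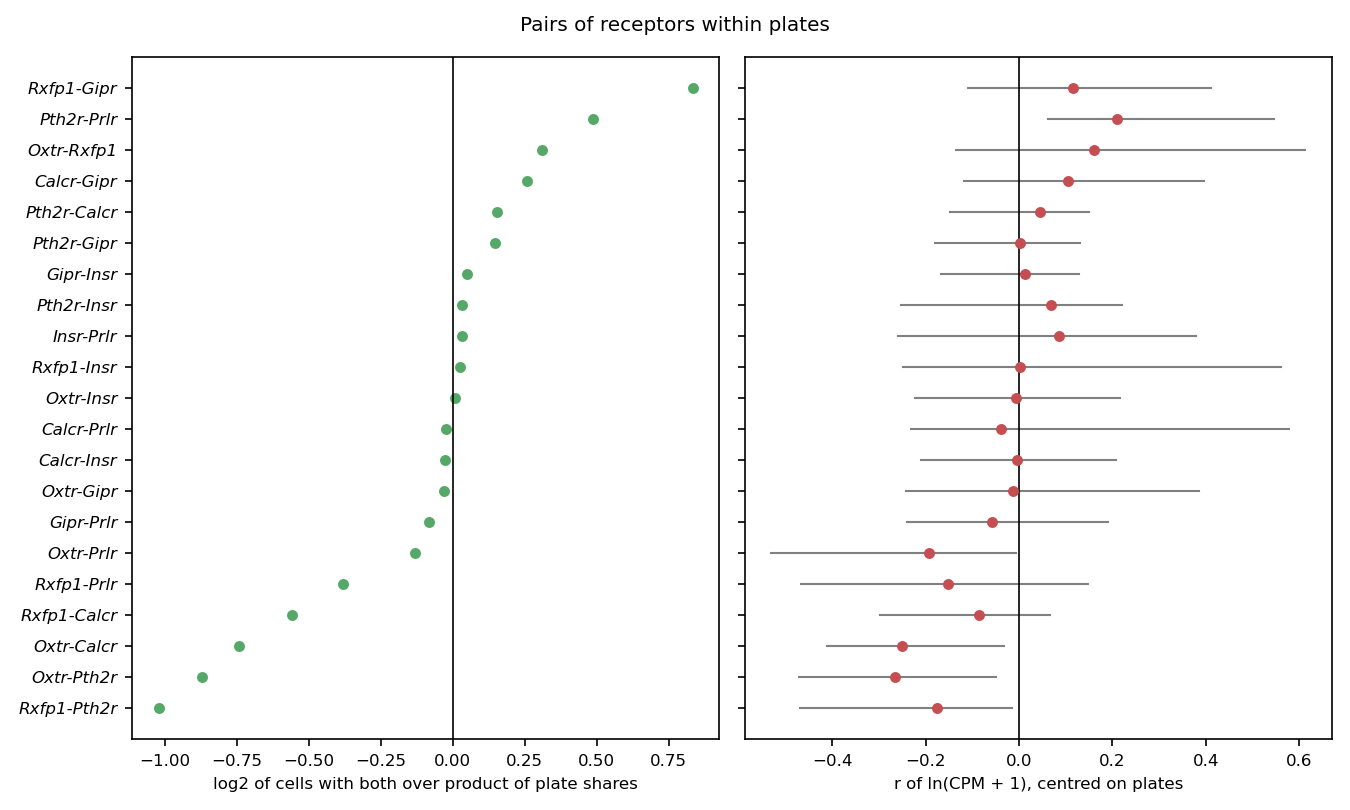
For the 21 pairs without Lepr and Glp1r, the log2 ratio of cells with reads of both genes to the product of their shares summed over plates (left), and the Pearson r of ln(CPM + 1) centred on plates (right, points) with the lowest and highest r within single plates (grey lines). Pairs are sorted by the ratio, from Rxfp1 with Pth2r (29 cells against 58.9) to Rxfp1 with Gipr (39 against 21.9).

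Among 8083 genes with a mean above 10 CPM, those whose level was most like each receptor were ranked by the same plate-centred r over 999 cells. For Oxtr they were Stxbp6 (r = 0.49), Kit (0.45) and Pcdh15 (0.43). For Pth2r they were Gabre (0.54) and Gabrq (0.46), which encode GABA-A receptor subunits, and Alcam (0.44), a cell adhesion gene. Alcam was also the gene with the lowest r to Oxtr, at -0.42. For Calcr they were Dlk1 (0.42), Nell1 (0.38) and Asb4 (0.34), the last 1.62 Mb from Calcr on chromosome 6. For Rxfp1 they were the transcription factor gene Pou3f1 (0.43), Pter (0.37) and the semaphorin co-receptor gene Nrp1 (0.36), and for Prlr Tmem176a (0.31), Prkcq (0.31) and Pcdh17 (0.30). No gene reached 0.3 with Gipr, Insr or Lepr, for which the highest were 0.23, 0.18 and 0.11.

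The hormones themselves were mostly not read in these cells. Of 20 listed ligand genes 10 had a read in any cell. Pth2, the gene of the Pth2r ligand TIP39, and Prl, the prolactin gene, had reads in 0 of 999 cells, as did Gcg, Lep, Ins1 and Ins2, among 10 genes at 0, and Oxt in 4. The exception was the relaxin gene Rln1, read in 301 cells (30.1%, 27.3 to 33.1) at a mean of 4.26 CPM. Rln1 and its receptor gene Rxfp1 were read together in 60 cells, against 66.7 from the product of plate shares. Adm was read in 7.41% of cells, Calca in 5.41%, Pthlh in 3.70%, and Calcb and Rln3 each in 1.80%. Past the fold between dissections was 1 of the 20, Adm (log2 ratio 1.02), against 0.901% of all genes upwards and 1.54% downwards.

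Of 25 other listed receptor genes, of the same families except for Igf2r, 20 had a read, and the 5 most widespread were each in most of the cells. These were the PACAP receptor gene Adcyap1r1 (88.6%), Igf1r (76.5%), the cytokine receptor genes Lifr (69.4%) and Il6st (66.8%), and Igf2r (62.6%), with Crhr2 next (40.6%). Of the 25, 0 were past the fold between dissections, against the same 0.901% and 1.54%, and their median log2 ratio was -0.01, as was that of all genes tested.

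Of 48 listed partner and signalling genes all 48 had a read and 32 were in most of the cells, with Gnas in 999 cells, Prkaca in 997, Prkacb in 996, Gnaq in 993, Grb10 in 992 and Gna11 in 990. Past the fold between dissections were 2 of the 48, Ramp2 (log2 ratio 1.35) and Plcb3 (1.23), both upwards in DR_MR, where 0.901% of all genes were past it upwards and 1.54% downwards. The products of Ramp1, Ramp2 and Ramp3 join the calcitonin receptor to form amylin receptors. Of the 315 Calcr cells, 40.6% had Ramp1, 29.5% had Ramp2 and 16.2% had Ramp3, against 38.3%, 55.3% and 43.3% of the other 684. Within plates, Ramp2 and Ramp3 were each less frequent in Calcr cells in 13 of 14 plates and Ramp1 in 5 of 14. At least 1 of the 3 was read in 65.7% of Calcr cells (60.2 to 70.9) and 80.8% of the others. Jak2, the kinase that Prlr and Lepr signal through, was read in 48.5% of cells, Stat3 in 94.5%, Leprot in 81.9% and the insulin receptor substrate gene Irs2 in 91.3%. Jak2 was read in 46.8% of Prlr cells and 50.5% of the others.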

How the data were processed

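Cells were sorted singly and sequenced by the authors with Smart-seq2 as paired reads. Per the submitters' processing notes, bcl2fastq 2.19.0.316, STAR 2.6.1a, HTSeq 0.11.2 and the mm10 build were used. HTSeq counted reads on genes without regard to strand, and genes of the Y chromosome were removed. The deposited values are CPM, made by the authors by scaling each cell's counts to the same total. All 9386862 values above 0 were whole multiples, within 0.001, of the value of 1 read, so whole reads were recovered. No count test was run, because the labels name no animals and each dissection is 1 sample.

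Cells needed 300 genes, 50000 reads and 1 read of Tph2, and all 999 passed. The other 537 labelled cells were not analysed here, and no doublet caller was run on cells sorted singly. Genes with a read in at least 3 cells (25522) were compared by the log2 ratio of mean CPM + 1 at a threshold of 1, beside the number of plates, with at least 3 cells of each kind, that share the direction. A gene was detected with 1 read. Shares carry exact Clopper-Pearson 95% intervals, and a share of 0 a limit of 3 cells over the number of cells. Reads without molecular identifiers are not independent molecules. Lengths and positions are from GENCODE M21 and promoter windows from RefSeq on GRCm38.p6, which has windows for 6 of the 9 receptors. The self-made code was tested on simulated data and run in Python 3.11.15 with NumPy 2.4.6, pandas 2.3.3, SciPy 1.17.1 and matplotlib 3.10.9.

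The receptors and all gene lists were chosen with earlier results of these data known. Named genes are the 9 receptors, the markers of the sets, up to 3 genes most like each receptor with r of at least 0.3, and, of each list, the 6 in most cells with Oxt, Rln3, Pth2, Prl, Ramp1 to Ramp3, Leprot, Jak2, Stat3 and Irs2. The lists of other receptors, ligands and partners hold 25, 20 and 48 genes. Alternatives were the depth filter, the detection minimum, thinning, the pseudocount, equal weight for plates, another scaling, stricter markers and leaving out each plate. Sets that split Zeb2 and Irx2 cells further, the comparison without Zeb2 and Irx2 cells, and the plate counts for Ramp genes and Rln1 were added after seeing the data. So was the comparison without the 4 DR_MR plates with the most Zeb2 cells.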

Additional observations from a re-analysis of the deposited data

How the results depend on the processing

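The share of cells with 3 or more of the 9 receptors moved from 60.6% to 43.8% with a minimum of 5 reads, to 33.0% at 10 CPM and to 51.2% after thinning, so it depends on depth and on the detection minimum. Leaving out each plate in turn gave 59.1 to 61.5%. Between dissections, equal weight for plates put 1 receptor past the fold downwards, and leaving out plates gave 0 to 1 (1 without SER13, SER25, SER50, SER52, SER60 or SER63), which is Calcr. In cells without Zeb2 or Irx2 the count upwards fell from 3 to 1. At a pseudocount of 5 CPM, Pth2r fell short of the fold between dissections. Without plates SER48, SER55, SER56 and SER67, which had the most Zeb2 cells, Oxtr fell short of it. In Slc17a8-positive cells of DR_MR a pseudocount of 5 CPM left 0 downwards, leaving out plates gave 0 to 1 (0 without SER60), and cells without Zeb2 or Irx2 gave 2 upwards. In those of pDR the count downwards was 2 at a pseudocount of 0.1 CPM, 0 at 5 CPM and 2 with the marker at 10 CPM, and 0 to 2 with plates left out (2 without SER13 or SER39, 0 without SER25 or SER40). In Gad-positive cells of DR_MR it was 1 at a pseudocount of 0.1 CPM and 0 to 1 with plates left out (1 without SER52, SER55 or SER56), and cells without Zeb2 or Irx2 gave 1 upwards (Rxfp1, higher in 3 of 10 plates) and 1 downwards (Oxtr). In those of pDR a pseudocount of 0.1 CPM gave 1 upwards, one of 5 CPM 1 downwards, and leaving out plates 1 to 2 downwards (1 without SER13). The counts for Zeb2-positive, Irx2-positive and Zeb2, Met and Tacr3 cells stayed within 1.5 times under the alternatives run, and 0 receptors past the fold turned direction. That limit still lets single receptors drop out. Gipr in Zeb2-positive cells, at 2.65 against 0.315 CPM, fell short of the fold at a pseudocount of 5 CPM. No pair of receptors reached an r of 0.3 under any alternative run, while without centring Oxtr with Calcr had -0.30, and in DR_MR cells alone Oxtr with Pth2r had -0.32. Which pairs were lowest and highest depended on the measure. By Spearman correlation of the plate-centred values they were Oxtr with Calcr (-0.24) and Oxtr with Rxfp1 (0.27), and 19 of 28 pairs kept their sign. No paired analysis was possible because the labels' numbers pair no cells across dissections. Because the labels link no cell to a brain, each dissection counted as 1 sample, and animal and dissection cannot be told apart. A receptor below about 1 read per cell cannot be told from an absent one in that cell.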
